A study of Mus musculus with 18 samples.

Results

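The 10 genes followed here mark the supporting tissue and outer lining of the lung, and their RNA was measured in 6 sorted mouse cell populations. They are 10 of the 27179 genes counted, chosen by symbol with earlier results of these data known and matched to Entrez identifiers: Pdgfra, Tcf21, Tbx4 and Pi16 of fibroblasts, Pdgfrb and Cspg4 of pericytes, Acta2 of smooth muscle, and Wt1, Msln and Upk3b of mesothelium. The rule that chose them used no measured value. All 10 passed the filter on low counts over the 18 libraries, none of them through a single population, and 5 passed it in the tracheal libraries alone. RNA was sequenced from 18 libraries, 3 per population, of untreated C57BL/6 mice, adult males by the study's methods. The trachea of mice 1 to 3 gave NGFR-positive basal stem cells (BSCs) and NGFR-negative non-basal cells, both from peeled epithelium. The lungs of mice 4 to 6 each gave 4 gates. The airway gates were EpCAM-positive and CD104-positive, a CD24hi gate enriched in ciliated cells and a CD24lo gate enriched in club cells. The alveolar gate was EpCAM-positive and CD104lo, and the EpCAM-negative gate held non-epithelial cells. By the study's methods alveolar cells were also negative for CD45 and CD31, which mark blood and endothelial cells. The labels do not say whether the EpCAM-negative gate was depleted of such cells. EpCAM is an adhesion protein of epithelial cells and CD104 is integrin beta 4. Replicates were separate mice, but organ, mice and cell population cannot be told apart between trachea and lung.

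Lung mesenchyme holds several cell types that are told apart by a few genes. Pdgfra encodes a receptor for platelet-derived growth factor (PDGF) carried by fibroblasts, and Tcf21 and Tbx4 encode transcription factors of lung mesenchyme. Fibroblasts of the alveolar wall are rich in Npnt and Inmt, whereas those of the sheath around large vessels and airways, the adventitia, are rich in Pi16 and Dcn. Pericytes wrap capillaries and carry the receptor gene Pdgfrb and the proteoglycan gene Cspg4. Smooth muscle of airways and vessels is built on the actin of Acta2. Mesothelium is the cell sheet that covers the lung and carries the surface protein genes Msln and Upk3b and the transcription factor gene Wt1. In sorted populations, fewer cells of a type and less RNA per cell cannot be told apart.

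Tracheal libraries held 29317215 to 32993621 counted reads and lung libraries 9811503 to 13208897. The EpCAM-negative label was checked on 10 epithelial markers, whose summed level was 56.8 to 68.0 CPM (counts scaled to a common library size) in that gate and at least 1976 CPM in every other library. The gate also held other cell types. The 10 endothelial markers, none of them at 0 there, summed to 682 to 1047 CPM in EpCAM-negative cells, 261 to 901 in CD24hi, 558 to 1280 in CD24lo and 196 to 391 in alveolar cells, so these ranges overlapped with both airway gates. In the airway libraries of mouse 4 the sum was 901 CPM (CD24hi) and 1280 CPM (CD24lo), above those of mice 5 and 6, and the 8 fibroblast matrix genes summed to 322 and 680 CPM there against 104 to 173 and 389 to 472 CPM in the same gates of mice 5 and 6. For the members, calls that change without these airway libraries are given both ways. So are the printed shares of the EpCAM-negative level that move by more than 1.5 times. Calls and mean RPKM of the listed genes are given only with these libraries included. Single libraries stood apart in other populations too. By the chi-square of counts per degree of freedom, alveolar replicate 2 differed from the other replicates at 38.1 and 36.2, against 5.7 between those. It also had the highest alveolar endothelial sum, 391 CPM. BSC replicate 1 differed at 23.3 and 29.6, against 5.68, and non-basal replicate 1 at 21.5 and 21.1, against 5.23. The part of endothelial and other cells in the results was not tested. Haematopoietic markers summed to 72.0 to 195 CPM in EpCAM-negative cells and 365 to 383 CPM in alveolar cells, where Lcp1 made up most. Gene by gene, in the tests given below, 8 of these 10 markers were higher in EpCAM-negative than in alveolar cells and 2 lower. Of all tested genes 32.7% were higher and 29.2% lower. Erythroid markers ranged from 60.7 to 499 CPM in EpCAM-negative cells, and there the cartilage and glial lists reached at most 35.4 and 5.30 CPM.

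The 250 bases before the transcript start of 3 members are shown: Acta2 of smooth muscle, Tcf21 of lung fibroblasts and Pi16 of adventitial fibroblasts. They are RefSeq sequences of GRCm38.p6, the assembly of mm10, read 5′ to 3′ on the gene's own strand. Of the 10 members, 7 had such a sequence. For Acta2 and Pi16 the start used there lies inside the annotated gene span. Capitals mark motif matches that a search of both strands found: the CArG box, bound by serum response factor (CC and GG around 6 letters, with at least 5 of these A or T), and CATTCC, the core bound by TEAD factors, or its reverse complement. Acta2 lies at chr19:34255374-34255623 (minus strand), Tcf21 at chr10:22820144-22820393 (minus strand) and Pi16 at chr17:29318632-29318881 (plus strand).
Acta2: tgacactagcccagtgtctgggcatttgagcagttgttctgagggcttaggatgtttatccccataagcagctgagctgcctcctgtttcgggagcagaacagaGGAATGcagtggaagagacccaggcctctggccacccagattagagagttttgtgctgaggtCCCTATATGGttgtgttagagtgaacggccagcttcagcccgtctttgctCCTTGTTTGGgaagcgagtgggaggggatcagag
Tcf21: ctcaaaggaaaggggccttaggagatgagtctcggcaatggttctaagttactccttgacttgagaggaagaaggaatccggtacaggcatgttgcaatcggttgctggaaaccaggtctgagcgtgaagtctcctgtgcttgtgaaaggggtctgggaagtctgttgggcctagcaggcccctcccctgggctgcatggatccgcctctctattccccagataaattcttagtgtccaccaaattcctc
Pi16: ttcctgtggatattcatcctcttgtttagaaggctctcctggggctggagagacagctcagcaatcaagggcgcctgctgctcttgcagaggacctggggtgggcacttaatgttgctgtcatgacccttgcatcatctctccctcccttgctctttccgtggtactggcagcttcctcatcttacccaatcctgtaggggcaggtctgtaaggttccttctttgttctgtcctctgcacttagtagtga
The Acta2 stretch held 2 CArG boxes, beginning 84 and 34 bases before the start, and 1 match to CATTCC at 146 bases. A CArG box of this form was present in 8.59% of the 32851 promoter windows of that length, and CATTCC in 12.6%. The Tcf21 and Pi16 windows held neither. The same windows were searched for TATAA, present in 22.8% of windows, and for GGGCGG, present in 32.7%, and none of the 3 held them.

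Pdgfra, the fibroblast PDGF receptor (GRCm38.p6 chromosome 5, bases 75151322 to 75198206), was highest in EpCAM-negative cells. Its levels in mice 4, 5 and 6 were 216, 225 and 288 RPKM (reads per kilobase of gene, scaled to library size, a unit that allows genes to be compared). The alveolar gate followed with 25.0, 18.5 and 18.8 RPKM, then CD24lo with 8.19, 4.88 and 6.15 and CD24hi with 4.64, 2.91 and 1.98. Tracheal cells were far lower. Non-basal libraries gave 0.253, 0.0626 and 0.203 RPKM, and BSC libraries gave 0.0338, 0.0328 and 0.0377. No pair of neighbours in this order overlapped.

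Tcf21, a basic helix-loop-helix factor of lung fibroblasts (chromosome 10, bases 22817263 to 22820143), took the same order at 152, 156 and 195 RPKM in EpCAM-negative cells. Alveolar libraries stood at 16.2, 12.2 and 13.1 RPKM, CD24lo at 9.59, 4.28 and 4.00, and CD24hi at 6.76, 1.55 and 2.16. The airway gates overlapped, and in both the library of mouse 4 was the highest. No Tcf21 read was found in any BSC library and 2 reads in 1 of the 3 non-basal libraries. Tbx4, a T-box factor that acts in lung mesenchyme (chromosome 11, bases 85886367 to 85916097), ran at 64.1, 66.8 and 79.7 RPKM in EpCAM-negative cells. It stood at 7.68, 5.62 and 4.31 RPKM in the alveolar gate, 4.13, 2.08 and 2.79 in CD24lo and 2.46, 1.00 and 0.749 in CD24hi. The order was again EpCAM-negative, alveolar, CD24lo and CD24hi, with the airway gates overlapping. Non-basal cells held 2, 1 and 17 Tbx4 reads and BSCs none.

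Pi16, a peptidase inhibitor gene that marks adventitial fibroblasts (chromosome 17, bases 29318796 to 29328903), was the most abundant of the 4 fibroblast genes in EpCAM-negative cells at 539, 549 and 494 RPKM. Outside that gate it took another order. CD24lo libraries stood at 7.75, 4.77 and 4.41 RPKM, CD24hi at 4.47, 3.23 and 2.00, the alveolar gate at 2.63, 2.30 and 2.43, and tracheal non-basal cells at 3.72, 1.52 and 1.15. Each population in this sequence overlapped with the next, so neighbours did not differ beyond their spread. BSCs held no Pi16 read in 3 libraries.

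**Figure D1:**
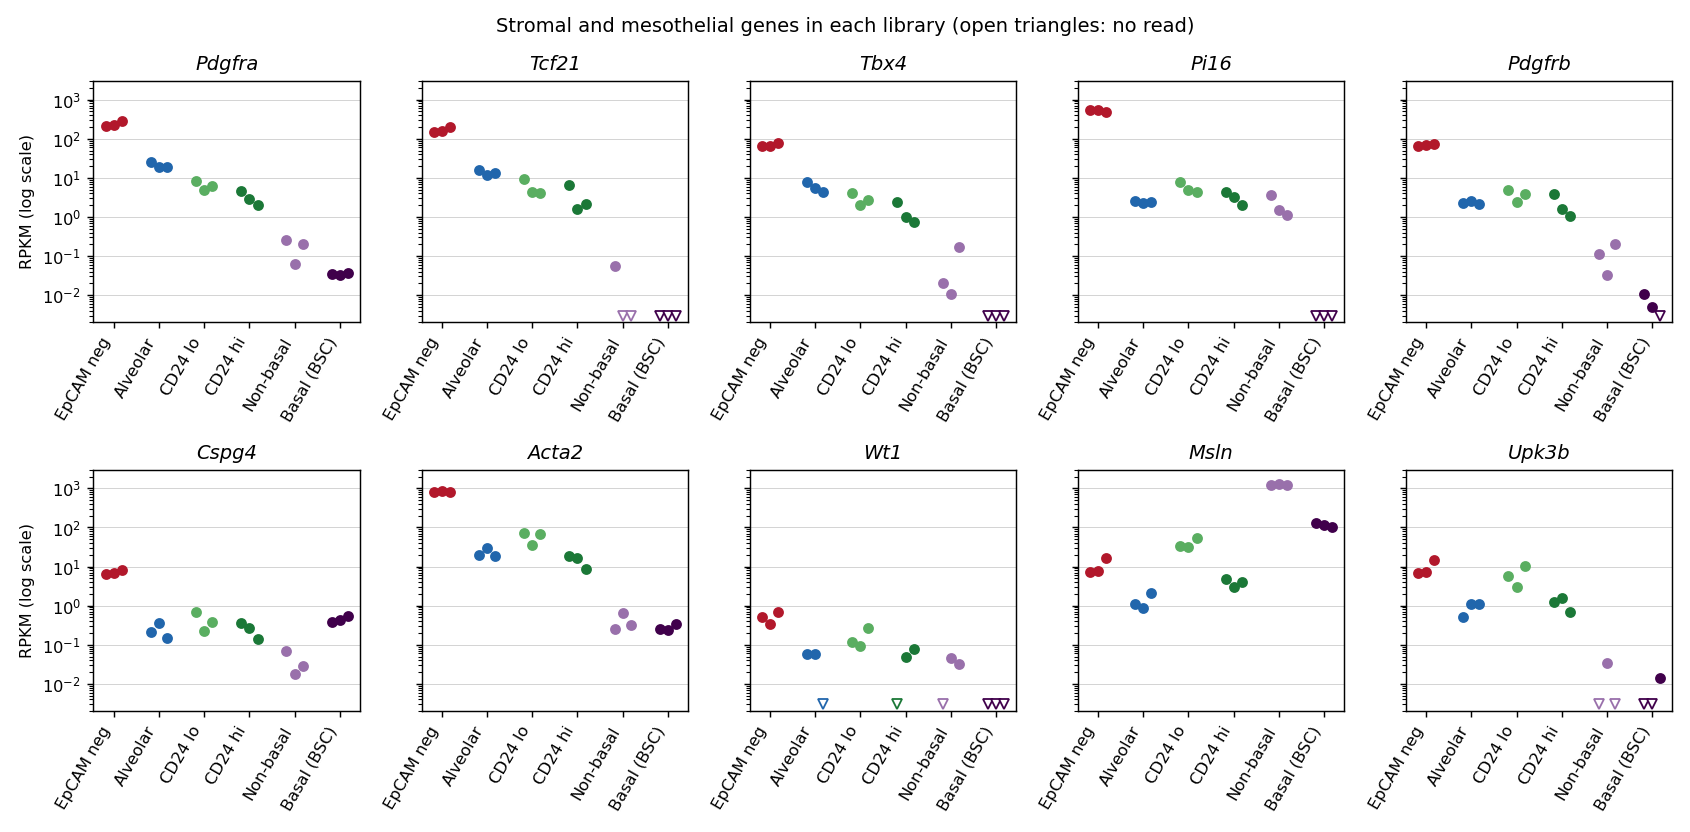
Level of each gene in RPKM (log axis) in the 18 libraries, 3 points per sorted population in mouse order, with open triangles at the foot of a panel for libraries without a read. EpCAM-negative libraries are highest for Pdgfra (216 to 288 RPKM) and 7 other genes, Upk3b overlaps between EpCAM-negative and CD24lo cells, and Msln is highest in tracheal non-basal cells (1226 to 1268 RPKM).

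Tests of EpCAM-negative cells against each other population used edgeR's quasi-likelihood test, fitted on 17989 genes with Benjamini-Hochberg adjustment. These 5 comparisons share the EpCAM-negative libraries. Against alveolar cells 10 of the 10 genes were called higher, where 32.7% of all tested genes were called higher and 29.2% lower. Against CD24hi cells it was also 10 of 10 (36.7% of all genes higher, 35.6% lower). Against CD24lo cells 8 were higher, Msln was lower and Upk3b was not called (32.1% of all genes higher, 31.4% lower). Against BSCs 9 were higher and Msln lower (36.6% and 33.7% of all genes), and against non-basal cells likewise 9 and Msln (35.9% and 35.6%). The median difference over the 10 genes was 3.61 on the log2 scale against alveolar cells, 5.28 against CD24hi, 4.13 against CD24lo, 12.12 against BSCs and 9.30 against non-basal cells. Over all tested genes these medians were 0.012, 0.043, 0, 0.030 and 0.0012.

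Among fibroblast genes the fold over alveolar cells was close to 12-fold for 3 and much larger for Pi16. Pdgfra was 11.7-fold higher in EpCAM-negative cells (log2 difference 3.55, SE 0.30, adjusted p = 1.04e-08), Tcf21 12.1-fold (3.59, SE 0.36, adjusted p = 2.49e-07) and Tbx4 11.9-fold (3.58, SE 0.35, adjusted p = 2.41e-07). Pi16 was 215-fold higher (7.75, SE 0.42, adjusted p = 1.51e-10). Over CD24lo cells Pdgfra was 38.0-fold higher and Pi16 92.8-fold. Over BSCs, where no read was found, Tcf21 was at least 7406-fold, Tbx4 at least 8163-fold and Pi16 at least 42056-fold higher, taking 3 reads over the group as the floor.

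Lung epithelial gates kept a measurable level of these genes, which can be set against the EpCAM-negative library of the same mouse. In the alveolar gate Pdgfra reached 8.77% ± 2.57 (SD, n = 3) of that level, Tcf21 8.42% ± 2.05 and Tbx4 8.60% ± 3.29, but Pi16 0.466% ± 0.0412. In CD24lo cells the values were 2.69% ± 0.943, 3.71% ± 2.29, 4.35% ± 1.82 and, for Pi16, 1.07% ± 0.322. In CD24hi cells they were 1.37% ± 0.731, 2.19% ± 1.97, 2.09% ± 1.53 and 0.608% ± 0.213. Without the airway libraries of mouse 4 the means over mice 5 and 6 were 0.991%, 1.05%, 1.22% and 0.497% in CD24hi and 2.15%, 2.40%, 3.31% and 0.881% in CD24lo cells, so the Tcf21 share moved by more than 1.5 times in both gates and the Tbx4 share in CD24hi. The ratio of Pi16 to Pdgfra, both in RPKM, was 1.71 to 2.49 in EpCAM-negative libraries, 0.717 to 0.976 in CD24lo, 0.964 to 1.11 in CD24hi and 0.105 to 0.129 in alveolar libraries. By contrast the ratio of Tcf21 to Pdgfra was 0.676 to 0.7002 in EpCAM-negative and 0.647 to 0.696 in alveolar libraries, and it spread more widely in CD24lo (0.649 to 1.17) and CD24hi (0.533 to 1.46). Alveolar and EpCAM-negative libraries overlapped in the Tcf21 ratio and were far apart in the Pi16 ratio, in all 3 mice. Endothelial markers, as a median share over 10 genes, stood at 36.8% of the EpCAM-negative level in alveolar, 79.2% in CD24lo and 59.7% in CD24hi cells. Whether the EpCAM-negative gate was depleted of endothelial cells is not known, so these shares may not be comparable with those of the fibroblast genes.

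**Figure D2:**
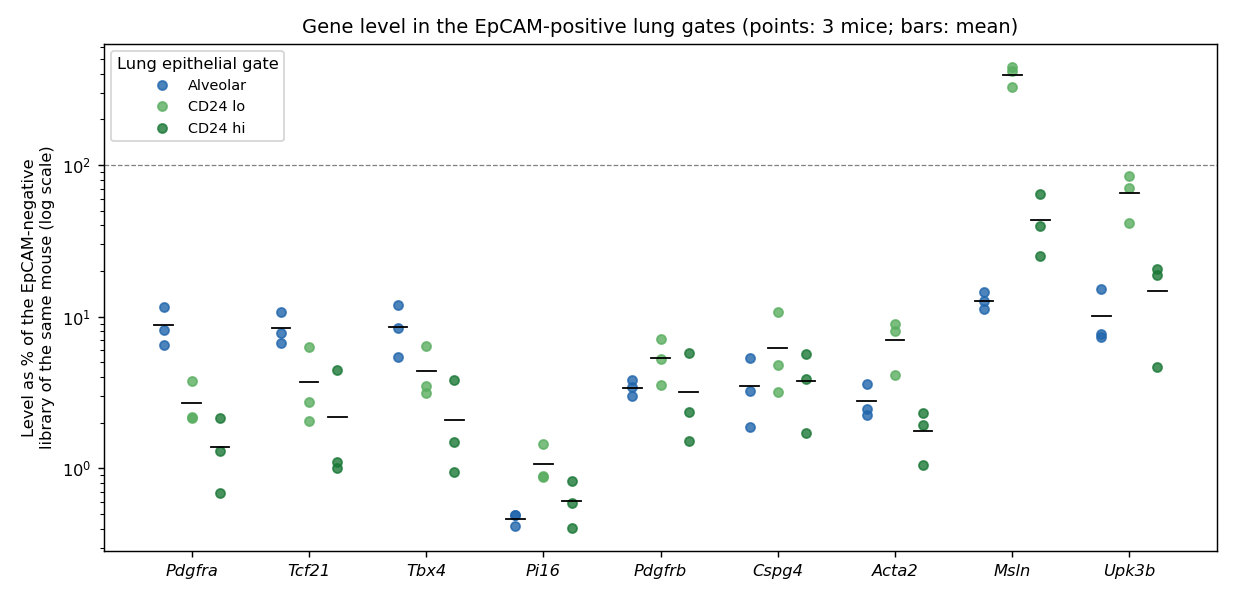
Level of 9 genes (Wt1 is left out for its few reads) in the 3 EpCAM-positive lung gates as a percent of the EpCAM-negative library of the same mouse (log axis), with a point per mouse, a bar at the mean and a dashed line at equality. In the alveolar gate Pdgfra, Tcf21 and Tbx4 lie between 5.403% and 11.98% and Pi16 between 0.418% and 0.492%, while Msln in CD24lo cells lies above equality at 327% to 443%.

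Direct tests between these gates gave opposite signs for Pdgfra and Pi16. From alveolar to CD24lo cells Pdgfra was 3.24-fold lower (log2 difference -1.70, SE 0.29, adjusted p = 8.82e-05), Tcf21 2.29-fold lower (-1.20, SE 0.39, adjusted p = 0.0188) and Tbx4 1.95-fold lower (-0.97, SE 0.37, adjusted p = 0.0444). Pi16 was 2.31-fold higher in CD24lo cells (1.21, SE 0.39, adjusted p = 0.0169). In this comparison 4 of the 10 genes were called higher (Pi16, Acta2, Msln and Upk3b) and 3 lower, where 24.2% of all tested genes were called in each direction. The Pi16 call was lost without the airway libraries of mouse 4 (difference 0.91, adjusted p = 0.069), without CD24lo replicate 1 alone (adjusted p = 0.0904) and without alveolar replicate 2 (adjusted p = 0.051). The Tcf21 and Tbx4 calls were lost by DESeq2 (adjusted p = 0.0541 and 0.206) and without CD24lo replicate 2 (0.0809 and 0.163), CD24lo replicate 3 (0.0778 and 0.107) or alveolar replicate 1 (0.0675 and 0.183), and the Tbx4 call also without alveolar replicate 2 (0.0739).

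From alveolar to CD24hi cells Pdgfra was 6.53-fold lower (adjusted p = 3.44e-07), Tcf21 3.96-fold lower (adjusted p = 0.000465) and Tbx4 4.19-fold lower (adjusted p = 0.000284), whereas Pi16 stood at 0.40 (SE 0.39, adjusted p = 0.398). Without CD24hi replicate 1 the Tcf21 difference moved from -1.99 to -2.90 on the log2 scale and that of Tbx4 from -2.07 to -2.74. Here 1 of the 10 genes was called higher, Msln, and 3 lower (30.5% and 31.4% of all tested genes). Of all calls in this comparison 49.2% were higher in CD24hi, and 65.4% when scaled by library size alone. Without the airway libraries of mouse 4 the count was 1 higher and 5 lower, Pdgfrb (-0.78, adjusted p = 0.0111) and Acta2 (-0.87, adjusted p = 0.0133) being added. Between the airway gates 5 of the 10 genes were lower in CD24hi and none higher, where 27.2% of all tested genes were called lower and 27.8% higher. Of all calls in this comparison 50.5% were higher in CD24hi, and 68.4% when scaled by library size alone. Those 5 were Pdgfra (2.02-fold, adjusted p = 0.00713), Tbx4 (2.14-fold, adjusted p = 0.0366), Acta2, Msln and Upk3b. No gene of the 10 was higher at an unadjusted p under 0.05 or by voom or DESeq2, since all 10 differences were negative. The Tbx4 call was lost under 7 single changes of libraries or test, with adjusted p from 0.0574 to 0.168, and without CD24hi replicate 1 the difference was -1.78 (adjusted p = 0.00195). Without the airway libraries of mouse 4 the count was 7 lower, with Tcf21 (-1.16, adjusted p = 0.00451) and Pdgfrb (-1.18, adjusted p = 0.00114) added. With mouse as a replicate block Pi16 was also called lower in CD24hi (-0.81, adjusted p = 0.00488), as it was in the same lung libraries without the block (adjusted p = 0.0183).

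Lists of other stromal genes, chosen like the members with earlier results in view, were read in the same way. Of 8 alveolar fibroblast genes 7 were higher in EpCAM-negative than in alveolar cells, with a median log2 difference of 3.35, and 1 was lower, beside the 32.7% and 29.2% of all genes. Mean levels were 5046 RPKM in EpCAM-negative against 469 in alveolar cells for Inmt, a methyltransferase gene, and 1424 against 127 for Mfap4, a matrix gene. Npnt, the matrix ligand gene nephronectin, stood at 438 RPKM against 89.8. The exception, the carboxylesterase gene Ces1d, was lowest in EpCAM-negative cells (237 RPKM) and at 619 to 1352 RPKM in the 5 epithelial populations, and it belongs to a cluster of similar genes among which reads could be split. Of the 8 adventitial genes all 8 were higher in EpCAM-negative cells with a median of 5.15. Dcn, a matrix proteoglycan gene, stood at 2792 RPKM there and 19.1 in alveolar cells. As shares of the EpCAM-negative level the median alveolar fibroblast gene reached 10.1% in the alveolar gate and 3.66% in CD24lo, while the median adventitial gene reached 2.87% and 2.71%. Without the CD24lo library of mouse 4 the CD24lo medians were 2.50% and 2.53%. The shared matrix genes (Bgn, Col3a1, Col1a2, Col1a1 and 4 more), all 8 of which were higher in EpCAM-negative cells, had medians of 3.24%, 1.87% and 0.698% in alveolar, CD24lo and CD24hi cells.

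**Figure D3:**
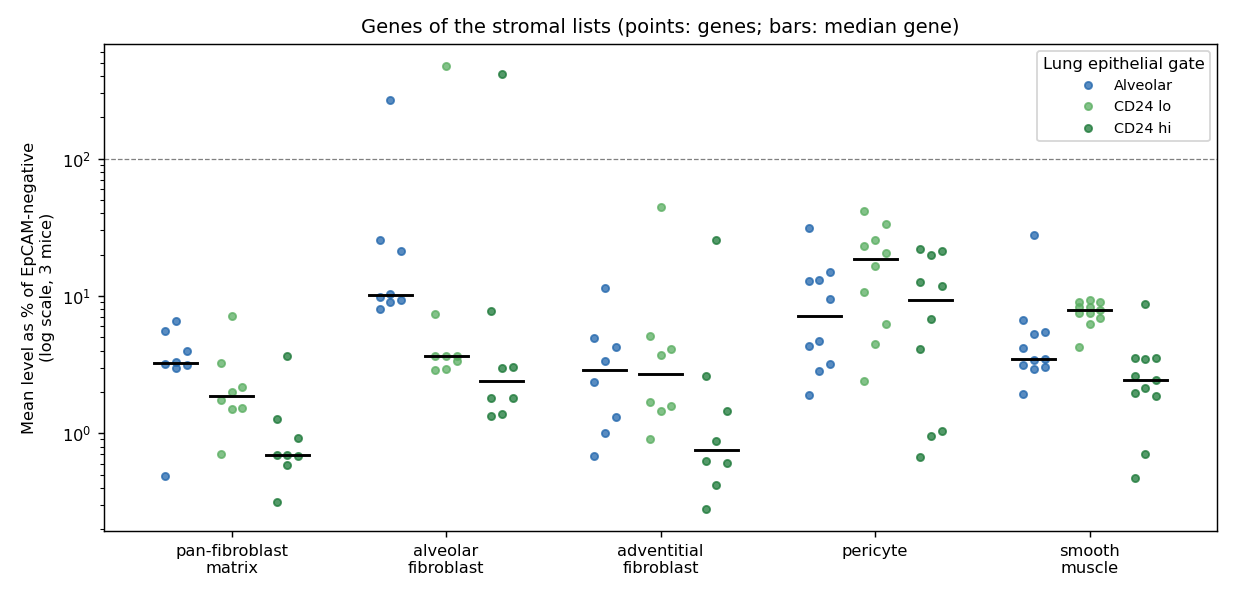
Mean level over 3 mice of each gene of 5 stromal lists in the EpCAM-positive lung gates, as a percent of the EpCAM-negative level (log axis), with a point per gene and a bar at the median gene. The alveolar fibroblast genes have their highest median in the alveolar gate (10.1%) and the smooth muscle genes in CD24lo cells (7.93%), and the point far above equality in the alveolar fibroblast list is Ces1d.

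Between CD24lo and alveolar cells the alveolar fibroblast list had 7 genes lower in CD24lo and 1 higher (Ces1d), with a median log2 difference of -1.45. The adventitial list had 1 lower (Dpt, 14.8 RPKM in CD24lo against 46.9) and 2 higher, Dcn (104 RPKM against 19.1) and Ly6a (207 against 51.7), with a median of 0.14. The background in each direction was 24.2%. Ly6a was named after its values were seen. Dcn and Ly6a were also well measured in the trachea, Dcn at 161 RPKM in BSCs and Ly6a at 540 RPKM in non-basal cells.

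Pdgfrb, the receptor gene of pericytes and many fibroblasts (chromosome 18), varied little among EpCAM-negative libraries at 66.8, 68.5 and 72.0 RPKM. CD24lo libraries held 4.76, 2.43 and 3.79 RPKM, alveolar libraries 2.28, 2.60 and 2.14 and CD24hi libraries 3.83, 1.61 and 1.09. These 3 gates overlapped, and mouse 4 gave the highest value in each airway gate. The CD24hi mean as a share of EpCAM-negative cells was 3.20% ± 2.24, and 1.94% without mouse 4. The fold of EpCAM-negative over alveolar cells was 29.5 (log2 4.88, SE 0.37, adjusted p = 2.39e-09). Tracheal non-basal cells held 18, 5 and 33 reads and BSCs 3 reads in all. The ratio of Pdgfrb to Pdgfra was 0.250 to 0.309 in EpCAM-negative, 0.0910 to 0.141 in alveolar, 0.498 to 0.615 in CD24lo and 0.549 to 0.827 in CD24hi libraries.

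Cspg4, which encodes the pericyte proteoglycan NG2 (chromosome 9, bases 56865104 to 56899870), was far less abundant, at 6.404, 6.892 and 8.041 RPKM in EpCAM-negative cells. Its second level was in tracheal BSCs, at 0.374, 0.419 and 0.530 RPKM (106, 122 and 151 reads), which overlapped with CD24lo (0.686, 0.220 and 0.386). CD24hi cells stood at 0.366, 0.267 and 0.137 RPKM, alveolar cells at 0.208, 0.366 and 0.150, and non-basal cells lowest at 0.0677, 0.0175 and 0.0283 (16, 4 and 7 reads). Cspg4 was 11.4-fold higher in BSCs than in non-basal cells of the same tracheas (log2 3.51, SE 0.44, adjusted p = 3.42e-06), in 3 of 3 mice. It was the single member higher in BSCs, and 6 were lower, where 21.9% of all tested genes were called higher in BSCs and 26.2% lower. Of all calls in this comparison 45.5% were higher in BSCs, and 72.2% when scaled by library size alone. Tcf21, Tbx4, Pdgfrb, Wt1 and Upk3b passed the filter only with the lung libraries. In a fit of the tracheal libraries alone 5 members were tested, with 1 higher, 3 lower and 1 not called. Leaving out any 1 library left the Cspg4 difference between 3.19 and 4.21, the highest without non-basal replicate 1. The BSC libraries held 3 Pdgfrb reads beside 379 Cspg4 reads. The 10 other pericyte genes summed to 25.9 to 28.8 CPM in BSCs and 60.8 to 69.0 CPM in non-basal cells, with 1 called higher in BSCs (Mcam, 0.819 against 0.265 RPKM, adjusted p = 0.0239), 3 lower and 6 not called. In BSCs 5 of these 10 had no read (Abcc9, Higd1b, Kcnj8, Lamc3 and Trpc6), and Higd1b and Trpc6 were named after their values were seen.

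All 10 further pericyte genes were higher in EpCAM-negative cells than in alveolar (median log2 difference 3.96), CD24hi (3.56) and CD24lo cells (2.60), where 32.7%, 36.7% and 32.1% of all genes were higher. Mcam, an adhesion molecule gene that endothelial cells also carry, stood at 66.5 RPKM in EpCAM-negative and 17.0 in CD24lo cells. The laminin gene Lamc3 stood at 56.1 against 3.51 RPKM. The channel genes Abcc9 and Kcnj8 stood at 46.4 against 1.10 and 36.4 against 1.65 RPKM. Shares of the EpCAM-negative level ran from 2.39% to 41.6% in CD24lo cells with a median of 18.5%, which was 8.94% without the library of mouse 4. Of the PDGF ligand genes, the receptors' partners, Pdgfd was 17.3 RPKM in EpCAM-negative cells and at most 1.62 RPKM elsewhere. Pdgfa had its lowest mean in EpCAM-negative cells, with 119 RPKM in CD24hi, 44.8 in BSCs, 34.1 in CD24lo, 29.4 in alveolar, 27.6 in non-basal and 19.9 in EpCAM-negative cells. Pdgfc was highest in BSCs (11.9 RPKM) and Pdgfb was 14.1 RPKM in CD24lo and 9.48 in EpCAM-negative cells, a pair that was not called (adjusted p = 0.0734).

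Acta2, the actin gene of smooth muscle and myofibroblasts (chromosome 19, bases 34240336 to 34255585), reached 800.1, 845 and 826 RPKM in EpCAM-negative cells. CD24lo airway cells came next at 71.9, 34.8 and 66.5 RPKM, above alveolar cells at 19.7, 30.4 and 18.6 and CD24hi at 18.6, 16.2 and 8.66. Tracheal libraries stayed at or under 0.631 RPKM, with 53 reads over the BSC group and 63 over non-basal cells (log2 difference -0.52, SE 0.51, adjusted p = 0.435). EpCAM-negative cells were 14.3-fold above CD24lo (log2 3.83, SE 0.30, adjusted p = 3.95e-09) and 36.0-fold above alveolar cells (5.17, SE 0.32, adjusted p = 1.66e-10). Within the epithelium CD24lo exceeded CD24hi 3.98-fold (adjusted p = 1.33e-05) and alveolar cells 2.52-fold (adjusted p = 0.00077), with no overlap in either pair. Both calls held without the airway libraries of mouse 4 and without any single library. As a share of EpCAM-negative cells Acta2 was 7.06% ± 2.58 in CD24lo, 2.77% ± 0.726 in alveolar and 1.76% ± 0.651 in CD24hi cells. The actin genes are close in sequence, so some reads may be split between Acta2 and its relatives.

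The other 11 smooth muscle genes were all higher in EpCAM-negative cells than in each of the other 5 populations. Of all tested genes 32.7% were higher against alveolar cells, 36.7% against CD24hi, 32.1% against CD24lo, 36.6% against BSCs and 35.9% against non-basal cells. In CD24lo cells their shares of the EpCAM-negative level ran from 4.22% to 9.26% around a median of 7.93% (6.43% without the library of mouse 4), beside the 7.06% of Acta2. Tagln, an actin-binding protein gene, stood at 559 RPKM in EpCAM-negative, 46.1 in CD24lo, 23.5 in alveolar and 13.4 in CD24hi cells. Myh11, the smooth muscle myosin heavy chain gene, stood at 136, 10.2, 3.99 and 2.89 RPKM. Of the 11 genes 10 were lower in CD24hi than in CD24lo, and 7 were higher in CD24lo than in alveolar cells while 1 was lower. Of all genes 27.2% were lower in CD24hi than in CD24lo, and 24.2% were called in each direction between CD24lo and alveolar cells. The gene that was lower was Mylk, the myosin light chain kinase gene, at 33.0 RPKM in alveolar against 8.20 in CD24lo cells, or 27.8% of the EpCAM-negative level. In the trachea 3 of the list were higher in BSCs than in non-basal cells and 2 lower, close to the 21.9% and 26.2% of all genes, while Acta2 was not called. The 3 higher were Lmod1 (0.511 against 0.220 RPKM), Smtn (8.999 against 1.773) and Mylk (2.10 against 0.297), and the 2 lower were Myh11 (0.0239 against 0.136) and Hhip (0.00207 against 0.0596). Lmod1, Smtn and Hhip were named after their values were seen.

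Msln, which encodes the surface protein mesothelin (chromosome 17, bases 25748613 to 25754378), was by far highest in tracheal epithelium. Non-basal cells held 1226, 1268 and 1232 RPKM and BSCs 128, 117 and 103. CD24lo cells followed with 33.1, 32.4 and 53.1 RPKM, then EpCAM-negative cells with 7.48, 7.81 and 16.2, CD24hi with 4.85, 3.08 and 4.09 and alveolar cells with 1.08, 0.870 and 2.05. None of these 6 populations overlapped with its neighbour. Msln was 10.7-fold lower in BSCs than in non-basal cells (log2 difference -3.42, SE 0.28, adjusted p = 2.44e-08). In EpCAM-negative cells it was 118-fold under non-basal cells (adjusted p = 3.57e-12), 11.0-fold under BSCs (adjusted p = 6.77e-09) and 3.75-fold under CD24lo cells (adjusted p = 1.02e-05), but 7.96-fold above alveolar cells (adjusted p = 5.91e-07) and 2.63-fold above CD24hi (adjusted p = 0.000402). CD24lo cells exceeded CD24hi 9.85-fold (adjusted p = 5.36e-08) and alveolar cells 29.9-fold (adjusted p = 2.23e-09), and CD24hi exceeded alveolar cells 3.03-fold (adjusted p = 0.000864).

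Upk3b, a uroplakin gene of mesothelium (chromosome 5, bases 136038496 to 136044993), was measured in EpCAM-negative cells at 6.74, 7.38 and 15.0 RPKM and in CD24lo cells at 5.70, 3.04 and 10.5. These ranges overlapped and the pair was not called (log2 difference 0.61, SE 0.38, adjusted p = 0.175). Without CD24lo replicate 3 the difference was 1.11 with an adjusted p of 0.0222. CD24hi cells held 1.26, 1.53 and 0.695 RPKM and alveolar cells 0.519, 1.13 and 1.09, with overlap. Trachea held 3 reads in 6 libraries. Upk3b was 5.45-fold higher in CD24lo than in CD24hi cells (adjusted p = 0.000159) and 7.00-fold higher than in alveolar cells (adjusted p = 9.39e-05). In the EpCAM-negative gate both Upk3b and Msln were highest in mouse 6, and in CD24lo cells both were again highest in mouse 6.

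Wt1, the Wilms tumour factor gene of mesothelium (chromosome 2, bases 105126529 to 105173614), was barely detected. EpCAM-negative libraries held 20, 13 and 28 reads (0.519, 0.347 and 0.690 RPKM), CD24lo 4, 3 and 7 reads, CD24hi 0, 2 and 3, alveolar 2, 2 and 0, non-basal 0, 4 and 3, and BSCs none. The EpCAM-negative range lay above all others, 12.4-fold over alveolar cells (log2 3.63, SE 0.73, adjusted p = 0.000471). Over CD24lo cells it was 3.36-fold (adjusted p = 0.0157), a call lost without CD24lo replicate 1 (0.0522), CD24lo replicate 2 (0.0703) or EpCAM-negative replicate 3 (0.0653). Over BSCs it was at least 57.6-fold.

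**Figure D4:**
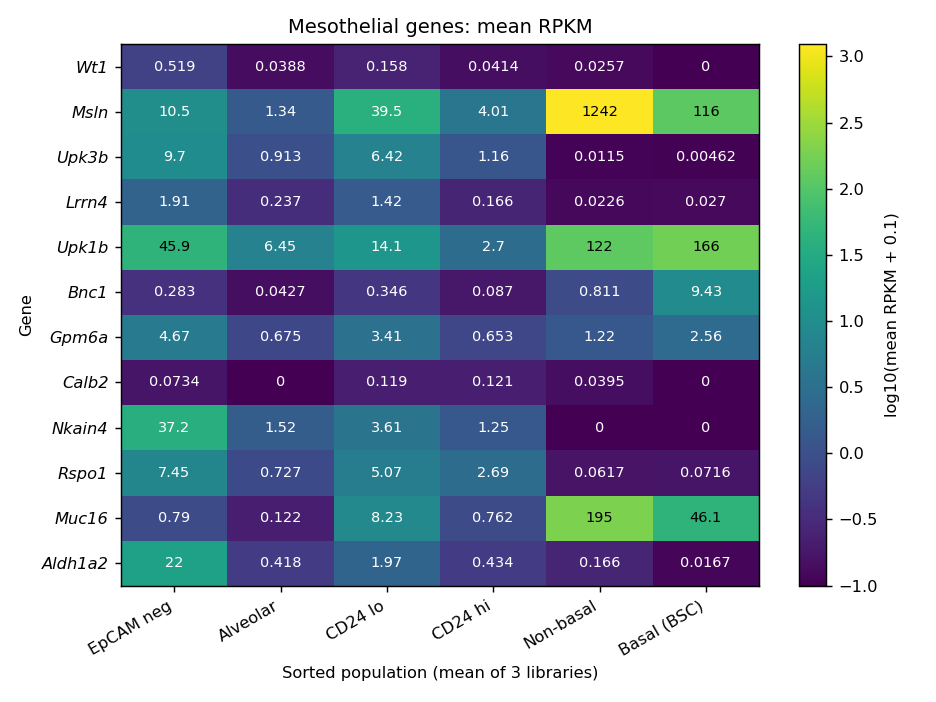
Mean RPKM of 12 mesothelial genes (rows) in the 6 populations (columns), 3 libraries each, coloured by log10 of the mean plus 0.1. Msln (1242 RPKM) and Muc16 (195 RPKM) peak in tracheal non-basal cells and Upk1b in BSCs (166 RPKM), while Wt1, Upk3b and Nkain4 are highest in EpCAM-negative cells.

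Of 9 other mesothelial genes 8 could be tested. All 8 were higher in EpCAM-negative than in alveolar cells, but 4 were higher and 1 lower than in CD24lo, 4 higher and 3 lower than in BSCs, and 5 higher and 3 lower than in non-basal cells. Against alveolar cells 32.7% of all genes were higher. Of all genes 32.1% were higher and 31.4% lower against CD24lo, 36.6% and 33.7% against BSCs, and 35.9% and 35.6% against non-basal cells, so the counts of lower genes in these 3 comparisons were near or under the background. Muc16, the mucin that binds mesothelin, followed Msln with 195 RPKM in non-basal cells, 46.1 in BSCs, 8.23 in CD24lo and 0.790 in EpCAM-negative cells. Upk1b, a uroplakin gene, stood at 166 RPKM in BSCs, 122 in non-basal and 45.9 in EpCAM-negative cells. Bnc1, a zinc finger factor gene, was 9.43 RPKM in BSCs and at most 0.811 elsewhere. Gpm6a, a membrane glycoprotein gene, was 4.67 RPKM in EpCAM-negative, 3.41 in CD24lo and 2.56 in BSCs. All 8 were higher in CD24lo than in alveolar cells (median log2 difference 2.43) and lower in CD24hi than in CD24lo (median -2.25), beside 24.2% and 27.2% of all genes. Aldh1a2, the retinoic acid synthesis gene, and Nkain4 were named after their values were seen. They stood at 22.0 and 37.2 RPKM in EpCAM-negative cells, 1.97 and 3.61 in CD24lo, and at most 0.166 RPKM in the trachea, so their shares in CD24lo (8.88% and 9.60%) were well under the 65.3% ± 22.1 of Upk3b.

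Within the trachea the fibroblast genes among the members were low in both gates, and all but Tcf21 were called lower in BSCs. Pdgfra fell from 104 reads in non-basal cells to 25 in BSCs (4.89-fold, adjusted p = 0.00208), Pdgfrb from 56 to 3 (22.5-fold, 95% counting interval 7.32 to 112, adjusted p = 0.00488) and Tbx4 from 20 to 0 (at least 8.04-fold, adjusted p = 0.0437). Pi16 fell from 421 reads to 0 (at least 169-fold, adjusted p = 5.3e-07), and Wt1 from 7 to 0 (at least 2.81-fold, adjusted p = 0.0349). The Tbx4 and Wt1 calls were lost on leaving out single libraries, with adjusted p up to 0.298 without non-basal replicate 3 and 0.116 without non-basal replicate 2. By voom the Pdgfra and Wt1 differences had adjusted p of 0.0511 and 0.0551. Scaled by library size alone, the Tbx4 difference had an adjusted p of 0.0554. Of the 20 Tbx4 reads 17 came from non-basal replicate 3, and of the 421 Pi16 reads 245 came from non-basal replicate 1. Leaving out single libraries moved the log2 difference of Pdgfrb from -4.19 to between -4.92 (without BSC replicate 1) and -3.53 (without non-basal replicate 3), and that of Pi16 from -9.47 to -8.75 without non-basal replicate 1, and both calls held. Tcf21 (0 and 2 reads), Acta2 and Upk3b (1 and 2 reads) were not called. The median over the 10 genes was -2.85 on the log2 scale, against -0.02 for all tested genes. It cannot show a shift shared by the 10, since it includes genes with few tracheal reads. Tcf21, Tbx4, Pdgfrb, Wt1 and Upk3b passed the filter only with the lung libraries and were not tested in fits of the trachea alone. Of the 8 matrix genes 7 were lower in BSCs and Fbln1 was higher (8.81 against 1.41 RPKM), with a list median of -5.60. Their summed levels overlapped, at 28.7 to 31.4 CPM in BSCs and 18.2 to 60.9 CPM in non-basal cells. Of the 8 adventitial genes 5 were lower and 2 higher, and of the 8 alveolar fibroblast genes 3 were lower and none higher. The 11 mesenchymal transcription factor genes had 2 lower and 2 higher. Of all genes 26.2% were lower and 21.9% higher, a split of calls that turns to 72.2% higher in BSCs under library size alone. Endothelial markers summed to 1.55 to 2.02 CPM in BSCs and 8.85 to 10.6 CPM in non-basal cells, with Cdh5, Cldn5, Emcn, Erg and Sox17 at 0 in BSCs, and their part in these differences was not tested.

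Other transcription factor genes of mesenchyme were set beside Tcf21 and Tbx4. Of 11 listed, 10 were higher in EpCAM-negative than in alveolar cells with a median log2 difference of 4.04 and Meox1, named after its value was seen, was not called (adjusted p = 0.0762), and all 11 were higher than in CD24hi and in both tracheal populations, beside 32.7%, 36.7%, 36.6% and 35.9% of all genes in these 4 comparisons. Tbx2, a T-box factor like Tbx4, was the most abundant at 163 RPKM in EpCAM-negative and 16.4 in alveolar cells. Osr1 stood at 57.7 RPKM in EpCAM-negative and 19.8 in BSCs, where it was higher than in non-basal cells (4.20 RPKM, adjusted p = 1.66e-07). Foxf1, which endothelial cells also use, was 55.6 RPKM in EpCAM-negative and 11.9 in CD24lo cells. The homeobox gene Meox2 was 47.0 RPKM in EpCAM-negative, 3.70 in alveolar and 1.04 in CD24lo cells, the same direction between the epithelial gates as Tcf21 (log2 difference from alveolar to CD24lo -1.80, adjusted p = 0.000221).

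Genes whose pattern over the 18 libraries was most like each member were read from the Pearson correlation of log2 CPM, a description whose points share 6 populations. Pdgfra was closest to Dpep1 (r = 0.9974) and Colec12, Tcf21 to Gja5 (0.9965) and S1pr3, Tbx4 to Pgm5 (0.9977) and Prelp, and Pi16 to Cd248 (0.9783) and Ncald. Pdgfrb was closest to Cd34 (0.9927) and Lrrc32, Cspg4 to Fmnl2 (0.9878) and Epb41l2, and Acta2 to the related actin gene Actc1 (0.9973) and to Des. Msln was closest to Muc16 (0.9755) and Ifit1, Upk3b to Ednrb (0.9716) and Higd1b, and Wt1, with its few reads, to Armcx5 (0.9351) and Corin. By GENCODE exons, Pdgfra shares 456 and 166 bases with 2 genes of the opposite strand and 30 with a microRNA, and Pi16 shares 222 bases with an antisense gene. The strand setting of the counting was not given in the sources used here, so reads of such pairs cannot be told apart. The other 8 members share no exon base with another gene.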

How the data were processed

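RNA was measured by single-end sequencing in 18 libraries of sorted mouse cells, 3 per population. The authors deposited raw read counts per gene with gene lengths, made with Rsubread's featureCounts on mm10 and its in-built RefSeq annotation, after bcl2fastq 1.8.4 by the submitters' processing notes. The strand setting was not given in the sources used here. Of 27179 Entrez identifiers 25275 were matched to symbols through the GRCm38.p6 RefSeq table. In R 4.3.3, edgeR 4.0.16 tested 17989 genes (CPM above 0.2 in at least 3 libraries) with TMM scaling, a single fit of all 18 libraries, quasi-likelihood tests and Benjamini-Hochberg adjustment at 0.05, after the script was tested on simulated data. RPKM was computed from counts, file gene lengths and TMM library sizes. At 9811503 to 32993621 reads a library, a group without a read was given a floor of 3 reads, and intervals are exact 95% intervals that cover counting error only. The members and gene lists were chosen with earlier results of these data known. Besides the members, at most 4 genes per list were named by mean RPKM in the population where the list was highest, plus genes called against their list's direction, and for each member the 2 genes with the highest correlation. Alternatives used voom (limma 3.58.1), DESeq2 1.42.0, other scalings and filters, fewer libraries and a mouse block. A fit per organ without the block, fits and shares without the airway libraries of mouse 4, and shares under other scalings were added after seeing the data. Libraries of the same mouse come from the same animal by the labels, so they are paired within an organ. Deviations from group means correlated at -0.059 to 0.278 over 18 lung pairs and 0.117 to 0.336 over 3 tracheal pairs.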

Additional observations from a re-analysis of the deposited data

How the results depend on the processing

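The totals of genes called in both directions stayed within 1.5 times under every alternative run in the 9 comparisons. Counts in 1 direction moved further under library size alone, from 3948 to 7780 genes higher and 4720 to 2989 lower in BSCs against non-basal cells, and from 4901 to 3233 lower in CD24hi against CD24lo. Scaling by library size alone moved the median of all genes to 0.31 for BSCs against non-basal cells, 0.21 for CD24hi against CD24lo and 0.29 for CD24hi against alveolar cells on the log2 scale. It also moved mean levels by more than the spread, to 0.0411 RPKM for Pdgfra and 137 RPKM for Msln in BSCs, 1154 RPKM for Msln in non-basal cells, and 2.19 RPKM for Pi16 and 2.09 RPKM for Pdgfrb in alveolar cells, and the alveolar share of Pi16 to 0.411%. Over all alternatives and members, 1274 log2 differences kept their direction and their side of the threshold, 35 lost the call, 21 gained one and 13 changed direction. Changes of direction occurred in uncalled differences between CD24hi and alveolar cells. There Wt1 was -0.16 by voom and -0.012 with the replicate block, Pdgfrb 0.21 under library size alone, and Cspg4 -0.25 without the airway libraries of mouse 4. Leaving out single libraries moved these differences from -0.68 to 0.60 for Wt1, -0.79 to 0.22 for Pdgfrb and -0.25 to 0.51 for Cspg4, and that of Upk3b between BSCs and non-basal cells from -2.06 to 1.23. The cause was not tested. Without non-basal replicate 1, Tcf21 had no read in either tracheal population and gave no value. In the fit of 1 organ with the replicate block Pi16 was called between CD24hi and CD24lo (-0.81, adjusted p = 0.00488), as it was in the same libraries without the block (adjusted p = 0.0183), so the block itself changed no call among the members. Without the airway libraries of mouse 4 the Cspg4 share in CD24lo moved from 6.23% to 3.99%, and no other member share in the airway gates moved by over 1.5 times beyond those given with the results. Low read numbers limit Wt1 in every population, and Tcf21, Upk3b, Tbx4 and Pdgfrb in trachea.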
